A study of Mus musculus with 4 samples.

Results

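The 10 genes described here encode proteins of the secondary and tertiary granules of neutrophils, or are expressed with them: *Ltf*, *Camp*, *Ngp*, *Lcn2*, *Chil3*, *Wfdc21*, *Retnlg*, *Mmp8*, *Olfm4* and *Fcnb*. They were chosen by name, with earlier results of these data known, and all 10 are among the 18695 genes of the deposited scRNA-seq counts. RNA of single bone marrow cells was counted as UMIs (unique molecular identifiers, 1 for each captured RNA molecule) in 4 libraries. A library was made for each of 2 genotypes in each of 2 sorts. *Tet2* KO mice were *Tet2* fl/fl mice that carried Mx1-Cre, a Cre recombinase driven by an interferon-inducible promoter that acts in blood cells and in other tissues. WT mice were *Tet2* fl/fl littermates without Cre, so the floxed allele was present in both genotypes. Mice of both genotypes received 4 intraperitoneal doses of pI:pC at 12.5 ug/g, an RNA mimic that induces interferon. The methods give young adult, age-matched mice of both sexes for all experiments. The GMP sort took granulocyte-monocyte progenitors (Lin- cKit+ Sca1- CD34+ CD16/32+), and the other took Lin- progenitors together with CD11b+ myeloid cells and is called here the Lin-/CD11b+ sort. Each group was a single library, and both sorts of a genotype came from the same mouse. No test was therefore made, a difference between genotypes cannot be told apart from a difference between mice or preparations, and each 95% interval below covers counting error only.

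Neutrophils fill their granules in sequence as they mature in the bone marrow. Promyelocytes make the primary (azurophil) granules with myeloperoxidase and elastase, myelocytes and metamyelocytes make the secondary (specific) granules with lactoferrin and cathelicidin, and band cells and later stages make the tertiary (gelatinase) granules. Because a granule holds what is transcribed while it forms, RNA of these genes marks the stage of a developing neutrophil, and the transcription factor C/EBP-epsilon is needed for many secondary granule genes.

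The genes lie on 6 chromosomes of the mouse genome (GRCm38/mm10, GENCODE vM21), and 4 of them are on chromosome 9. *Ltf*, which encodes the iron-binding protein lactoferrin, spans chr9:111019271-111042767. *Camp*, which encodes the antimicrobial peptide cathelicidin, lies at chr9:109847379-109849617, and *Ngp*, which encodes the cystatin-like neutrophilic granule protein, lies between them at chr9:110419747-110423012. *Camp* and *Ngp* were 570 kb apart, and *Ngp* and *Ltf* 596 kb. *Mmp8*, the neutrophil collagenase, is on the same chromosome at chr9:7558456-7568485. *Lcn2*, the siderophore-binding lipocalin, is at chr2:32384633-32388252, and *Fcnb*, the lectin ficolin B, at chr2:28076378-28084885. *Chil3* (a chitinase-like protein, Ym1) is at chr3:106147554-106167564, *Wfdc21* (a small protein with a WAP domain) at chr11:83746940-83752642, *Retnlg* (resistin-like gamma) at chr16:48872621-48874496 and *Olfm4* (olfactomedin 4) at chr14:79984081-80023139.

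The 150 bases before the transcription start are shown for 5 of the genes, because they include the neighbours on chromosome 9 and every window with the C/EBP core letters TTGCNNAA. They are the RefSeq starts on GRCm38.p6, written 5′ to 3′ on the strand of the gene, and capitals mark those letters on either strand.
*Ltf* (chr9:111019142-111019291, + strand): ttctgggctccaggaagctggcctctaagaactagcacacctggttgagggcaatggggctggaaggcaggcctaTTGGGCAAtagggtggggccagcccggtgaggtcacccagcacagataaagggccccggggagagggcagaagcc
*Camp* (chr9:109849457-109849606, - strand): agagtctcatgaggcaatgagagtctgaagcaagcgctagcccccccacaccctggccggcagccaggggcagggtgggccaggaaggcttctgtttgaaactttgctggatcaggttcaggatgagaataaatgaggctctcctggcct
*Ngp* (chr9:110419658-110419807, + strand): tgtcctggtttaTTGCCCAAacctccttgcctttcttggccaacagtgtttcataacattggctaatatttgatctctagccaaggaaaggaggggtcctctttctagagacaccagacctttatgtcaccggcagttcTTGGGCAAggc
*Mmp8* (chr9:7558279-7558428, + strand): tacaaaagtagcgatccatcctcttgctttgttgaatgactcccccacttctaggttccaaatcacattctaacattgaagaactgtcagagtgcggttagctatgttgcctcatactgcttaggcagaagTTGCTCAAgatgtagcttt
*Fcnb* (chr2:28084879-28085028, - strand): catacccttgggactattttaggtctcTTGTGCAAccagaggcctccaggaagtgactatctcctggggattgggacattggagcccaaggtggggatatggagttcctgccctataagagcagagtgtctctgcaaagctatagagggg
The table of starts had an entry for 9 of the 10 genes, all but *Wfdc21*. The letters occurred in this window in 4 of the 9 (*Ltf*, *Ngp*, *Mmp8* and *Fcnb*), and in 5.46% of 32851 promoters in the table. *Ngp* had them at 2 places, from base -138 to -131 and from -11 to -4, and *Ltf* had them from -75 to -68. The letters GAGGAA, part of the sites of PU.1, were in 2 of the 9 windows (*Lcn2* and *Olfm4*) and in 14.5% of all promoters. With the window enlarged to 300 bases, these were 6 of 9 against 10.8% and 4 of 9 against 28.3%. Both motifs were searched on both strands and do not overlap each other. These matches are descriptions of the sequence, and no binding was measured here.

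The libraries held 1258 to 3068 cells and 22681380 to 42561110 UMIs, with medians of 10417 to 18713 UMIs per cell, and 8969 cells in all. A total of 74 cells carried a barcode that was also found in another library. UMIs of *Tet2* were counted at 13 to 20.7 CPM (counts per 1000000 UMIs), and 3′ tags do not check the deletion. The numbers of cells listed in the supplement for the *Tet2* KO GMP library and the WT Lin-/CD11b+ library were reversed relative to the deposited cell table, and the deposited table was used here. Lymphoid-like cells made up 196 of 1924 cells of the WT Lin-/CD11b+ library and 0 of 2719 cells of the *Tet2* KO GMP library. Cells were clustered without the 10 genes, and clusters were named from marker genes. The neutrophil-like cluster was led by *S100a9*, *S100a8*, *Ly6g* and *Cd177*, and had all 9 neutrophil markers raised. It held 148 cells of each genotype in the Lin-/CD11b+ sort and 1 cell in the GMP sort. In the Lin-/CD11b+ sort, HSPC-like cells included a cluster of 103 WT and 106 *Tet2* KO cells led by *Dntt*, *Cox6a2*, *Myl10* and *Ly6d*, which had no cell in the GMP sort.

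The 10 genes took 1.02% of all UMIs of the WT Lin-/CD11b+ library and 0.632% of those of the *Tet2* KO library. In the GMP sort they took 0.0168% and 0.0196%. In the Lin-/CD11b+ sort, neutrophil-like cells held 94.4% of these UMIs in WT and 83.8% in *Tet2* KO. A median of 16.6% of the UMIs of a WT neutrophil-like cell came from these genes (10th to 90th percentile 9.69% to 19.7%), and 13.2% in *Tet2* KO cells (6.14% to 17.1%).

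**Figure D1:**
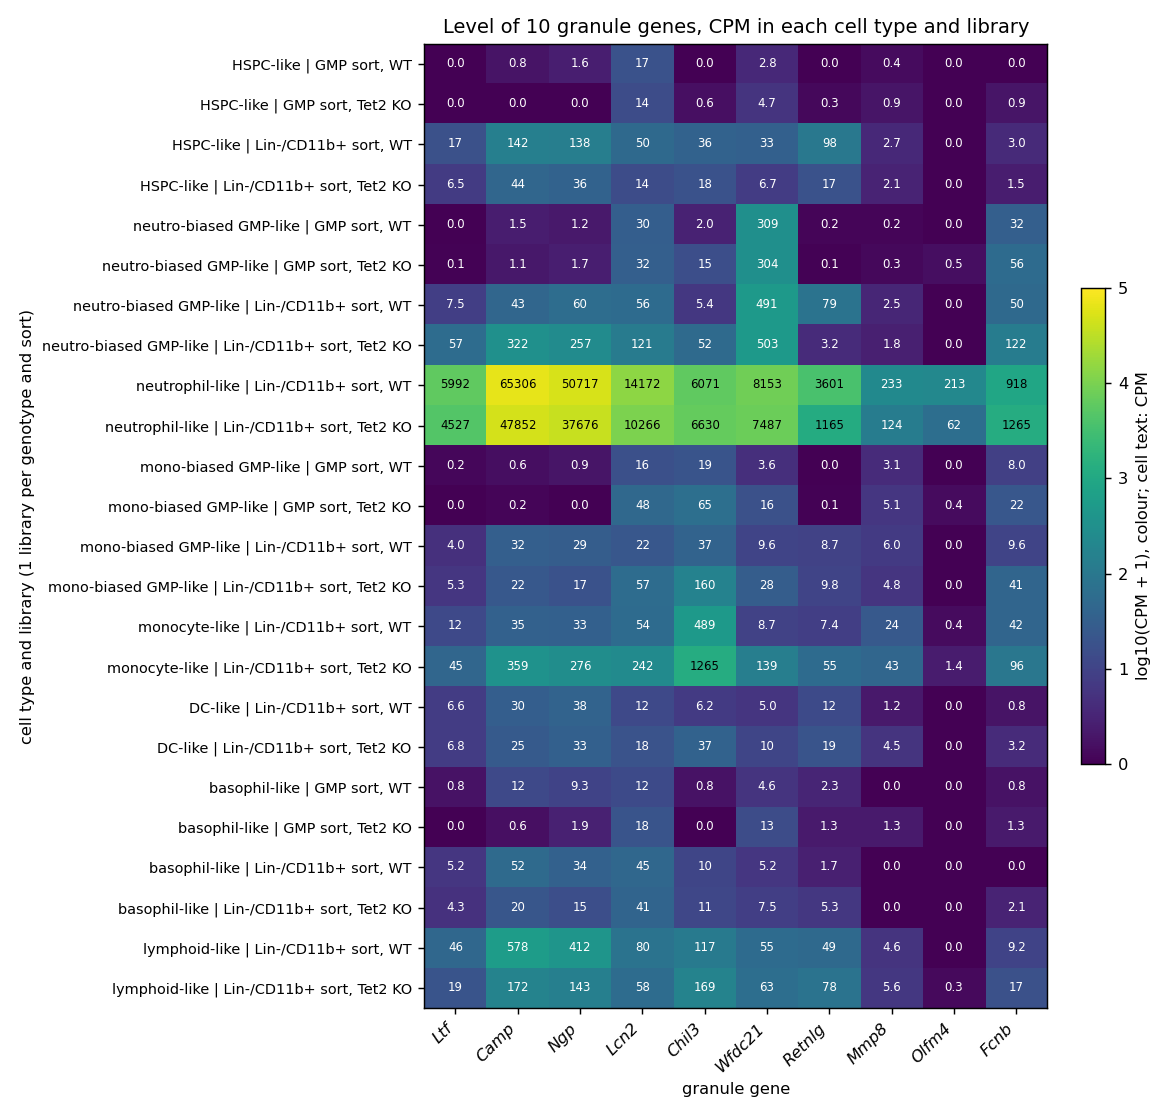
Level of each granule gene (columns) in each cell type and library (rows), with CPM as text and log10(CPM + 1) as colour. The 2 neutrophil-like rows were the highest for every gene, *Wfdc21* reached 304 to 503 CPM in neutro-biased GMP-like cells, and *Chil3* reached 489 and 1265 CPM in monocyte-like cells.

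UMIs of a 3′ assay count molecules whatever their length, so CPM of different genes are set side by side here as molecules captured. In WT neutrophil-like cells, *Camp* was at 65306 CPM (64884 to 65731), *Ngp* at 50717 and *Lcn2* at 14172. *Wfdc21* (8153), *Chil3* (6071), *Ltf* (5992) and *Retnlg* (3601) followed. *Fcnb* was at 918 CPM, *Mmp8* at 233 (208 to 259) and *Olfm4* at 213 (189 to 238). *Mmp8* and *Olfm4* therefore did not differ beyond counting error, and each of the other neighbours in the order of WT levels did, apart from *Chil3* and *Ltf*, whose intervals overlapped. In *Tet2* KO cells the order of *Camp* (47852), *Ngp* (37676), *Lcn2* (10266), *Wfdc21* (7487), *Chil3* (6630) and *Ltf* (4527) was the same. *Fcnb* (1265 CPM, 1209 to 1322) and *Retnlg* (1165, 1112 to 1220) had overlapping intervals in *Tet2* KO, whereas *Retnlg* was far above *Fcnb* in WT.

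The genes fell into those carried by nearly every neutrophil-like cell and those carried by some. *Camp*, *Ngp*, *Lcn2*, *Wfdc21*, *Chil3* and *Ltf* had a UMI in 95.9% to 100% of cells of either genotype. *Camp* varied little between WT cells, with a coefficient of variation of 0.354 for CPM per cell, and 47 of 148 cells held 50% of its UMIs. *Retnlg*, *Mmp8* and *Olfm4* were concentrated in few cells. *Retnlg* had a UMI in 60.8% of WT cells, but 11 cells held 50% of its UMIs and its coefficient of variation was 2.21. *Olfm4*, known to mark a subset of neutrophils, was found in 27 of 148 WT cells (18.2%, 12.4% to 25.4%), with a median of 11 UMIs in the cells that had it. *Fcnb* lay between the 2 kinds, with a UMI in 78.4% of WT cells and 50% of its UMIs in 24 cells.

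In neutrophil-like cells, the abundant secondary granule genes were lower in the *Tet2* KO library by about the same factor, and 3 genes concentrated in few cells were lower by more. *Camp* was at 65306 CPM in WT and 47852 CPM in *Tet2* KO (log2 ratio -0.45, 95% counting interval -0.46 to -0.43) and *Ngp* at 50717 and 37676 (-0.43, -0.44 to -0.41). *Lcn2* was at 14172 and 10266 (-0.47, -0.50 to -0.43) and *Ltf* at 5992 and 4527 (-0.40, -0.45 to -0.36). The intervals of these 4 ratios overlapped one another. *Wfdc21* was close to its WT level, at 8153 and 7487 CPM (-0.12, -0.16 to -0.09). *Chil3* was slightly higher in *Tet2* KO, at 6071 and 6630 CPM (0.13, 0.09 to 0.17), and *Fcnb* was higher by 0.46 (918 and 1265 CPM, 0.36 to 0.56).

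*Retnlg* was at 3601 CPM (3502 to 3702) in WT and 1165 CPM (1112 to 1220) in *Tet2* KO neutrophil-like cells, a 3.09-fold lower level (log2 ratio -1.63, -1.71 to -1.55). *Olfm4* was at 213 and 62.4 CPM (50.6 to 76.2), a 3.41-fold lower level (-1.77, -2.12 to -1.43). *Mmp8* was at 233 and 124 CPM (107 to 142), with a log2 ratio of -0.91 (-1.18 to -0.65). The shares of cells moved the same way. A UMI of *Retnlg* was found in 60.8% of WT and 43.9% of *Tet2* KO cells, and in 52.0% and 33.8% after each cell was thinned to 5000 UMIs. For *Mmp8* these were 33.8% and 26.4% (thinned 32.4% and 20.9%), and for *Olfm4* 18.2% and 6.08% (thinned 18.2% and 5.41%). *Fcnb* went the other way, with 78.4% and 87.8% (thinned 75% and 83.1%). The *Olfm4* UMIs of *Tet2* KO cells came from 9 cells, and 3 of them held 54.2%.

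Of the 10 genes, 2 (*Retnlg* and *Olfm4*) were at least 2-fold lower and 0 at least 2-fold higher in *Tet2* KO neutrophil-like cells. Of all 6086 genes with at least 20 UMIs in these cells, 1.89% were at least 2-fold lower and 6.93% at least 2-fold higher. The median log2 ratio was -0.44 over the 10 genes and 0.24 over all genes. Scaling by TMM factors shifted each ratio by -0.21 (log2). On that scale *Mmp8* also passed 2-fold, and *Chil3* turned to -0.09. *S100a8* and *S100a9*, the most abundant cytosolic proteins of neutrophils, were at 207358 and 124920 CPM in WT and 190660 and 116148 CPM in *Tet2* KO, with log2 ratios of -0.12 and -0.11. The summed level of the 10 genes was 155376 CPM in WT and 117054 CPM in *Tet2* KO (-0.41, -0.42 to -0.40).

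**Figure D2:**
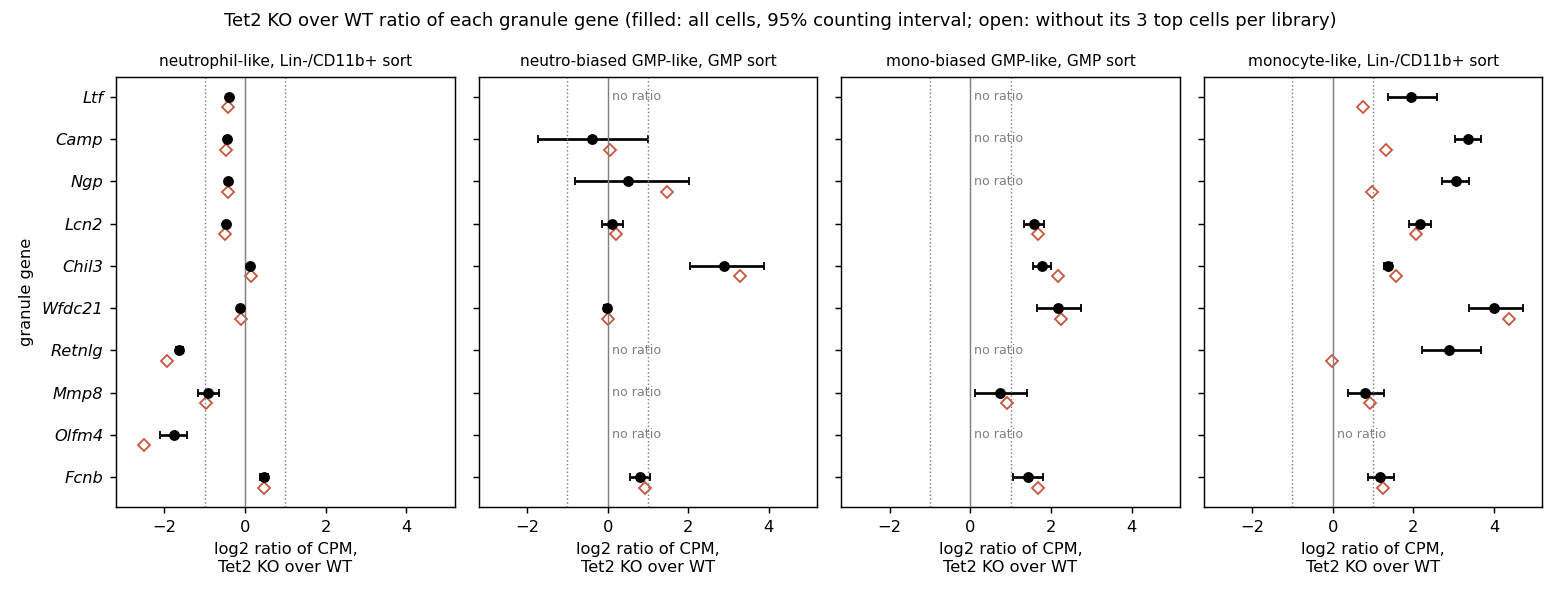
Log2 ratio (*Tet2* KO over WT, CPM) of each granule gene in 4 cell types (panels), with 95% counting intervals; dotted lines mark 2-fold, and open diamonds show the ratio without the 3 cells that held most UMIs of the gene in each library. *Retnlg* and *Olfm4* lay left of -1 in neutrophil-like cells. In monocyte-like cells the ratios of *Ltf*, *Camp*, *Ngp* and *Retnlg* moved towards 0 without 3 cells. That of *Lcn2* changed little (2.16 to 2.06), and those of *Chil3*, *Wfdc21*, *Mmp8* and *Fcnb* rose.

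Genes of the same pathway were taken from lists. Of 30 other secondary and tertiary granule genes, 29 were in the counts and 26 had at least 20 UMIs in neutrophil-like cells. None of the 26 was 2-fold higher in *Tet2* KO and 2 were 2-fold lower, *Ceacam10* (76.3 and 33.8 CPM, -1.17) and the metalloproteinase *Adam8* (31.4 and 13 CPM, -1.27). Of all genes, 6.93% were 2-fold higher and 1.89% 2-fold lower. The median log2 ratio of the 26 was -0.27. The gelatinase *Mmp9*, the defining tertiary granule enzyme, was at 260 and 133 CPM (-0.96), *Hp*, which encodes haptoglobin, at 1487 and 838 CPM (-0.83), and *Cd177* at 556 and 350 CPM (-0.67). These last 3 genes did not pass 2-fold and were named after their values were seen.

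Primary granule genes lay on the other side. Of 9 listed genes with at least 20 UMIs, 6 were at least 2-fold higher and 1 at least 2-fold lower in *Tet2* KO neutrophil-like cells with all cells kept. Their median log2 ratio was 1.34, and 6.93% and 1.89% of all genes passed. The neutrophil elastase gene *Elane* was at 321 CPM in WT and 1118 CPM in *Tet2* KO (1.80), *Prtn3* (proteinase 3) at 239 and 635 (1.41), *Mpo* (myeloperoxidase) at 86.3 and 317 (1.88) and *Ctsg* (cathepsin G) at 46.4 and 198 (2.10). For each of these genes, 3 cells held 30.1% to 46.2% of the UMIs in *Tet2* KO and 36.7% to 50% in WT. The list was wider than granule proteins, and the listed gene that was lower was *Gm5483*, of a stefin family with near-identical copies. It had 22 UMIs in WT and 1 in *Tet2* KO. Of 10 regulators of granulocytic differentiation, 2 were 2-fold higher and 0 lower. *Gfi1* rested on 6 and 20 UMIs (1.60, 0.23 to 3.21), and *Cebpa* on 8 and 18 UMIs, with an interval that included 0 (1.04, -0.24 to 2.45). *Cebpe*, which encodes C/EBP-epsilon, was at 506 and 482 CPM (-0.07, -0.22 to 0.08).

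The libraries also differed in how many neutrophil-like cells lay between progenitors and the other neutrophils on a maturation index. The index was made for each granulocytic cell from late genes (such as *Csf3r*, *Cxcr2* and *Ly6g*) minus early genes (such as *Mpo*, *Elane* and *Kit*), and cut into 6 bins of equal width. Neutrophil-like cells in bins 2 to 4 numbered 9 of 148 in WT (6.08%, 2.82% to 11.2%) and 26 of 148 in *Tet2* KO (17.6%, 11.8% to 24.7%). Of the 26, 8 had a doublet score in the highest 5% of their library, against 0 of the 9. Of all neutrophil-like cells, 18 of 148 *Tet2* KO and 10 of 148 WT cells had such a score. Without them the log2 ratios were 1.17 for *Elane*, 0.92 for *Prtn3*, 0.84 for *Mpo* and 0.73 for *Ctsg*, so *Elane* alone of these stayed past 2-fold. The count over the primary granule list was not repeated without these cells. The early genes are part of the index, so cells with more *Elane* or *Mpo* lie in these bins by construction, and the levels of primary granule genes along it are no result.

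Without the cells of bins 2 to 4, the 10 granule genes kept their directions. In the remaining 139 WT and 122 *Tet2* KO cells, the log2 ratios were -0.34 for *Camp*, -0.34 for *Ngp*, -0.33 for *Lcn2* and -0.26 for *Ltf*. They were -1.56 for *Retnlg* (-1.65 to -1.48), -1.53 for *Olfm4* (-1.88 to -1.19), -0.82 for *Mmp8*, 0.19 for *Chil3* and 0.36 for *Fcnb*.

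Along the index, the genes peaked at different places. Neutro-biased GMP-like cells filled bin 1, with 307 WT and 712 *Tet2* KO cells of the GMP sort, and neutrophil-like cells filled bins 5 and 6. Bins 3 and 4 held 4 cells each in WT and 8 and 11 in *Tet2* KO of the Lin-/CD11b+ sort, so the change of the granule genes between the 2 ends could not be followed. From bin 5 (48 cells) to bin 6 (91 cells) of WT, *Retnlg* went from 290 to 5668 CPM and *Mmp8* from 8.53 to 383 CPM. *Olfm4* went down from 439 to 96.9 CPM and *Fcnb* from 1290 to 469 CPM. *Camp* (75184 to 60076), *Ngp* (60732 to 46988) and *Chil3* (7366 to 5555) went down less, and *Ltf* (6138 to 6575) and *Wfdc21* (8493 to 8398) were nearly level. The *Tet2* KO cells (54 and 68) showed the same order for *Retnlg* (140 to 2189), *Mmp8* (38.1 to 225) and *Fcnb* (1462 to 590). *Olfm4* differed, with 67.1 and 84.5 CPM. In bin 6, the interval of the ratio lay below 0 for *Ltf*, *Camp*, *Ngp*, *Lcn2*, *Retnlg* and *Mmp8*, included 0 for *Wfdc21* (-0.01, -0.06 to 0.04) and *Olfm4* (-0.20, -0.72 to 0.31), and lay above 0 for *Chil3* and *Fcnb*.

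To order cells without primary granule genes, the neutrophil-like cells of both genotypes were also cut into quartile groups by the late genes alone, a choice made after the data were seen. The 4 quartile groups held 37, 31, 34 and 46 WT cells and 37, 43, 40 and 28 *Tet2* KO cells. Fewer *Tet2* KO cells (18.9%) than WT cells (31.1%) were therefore in the last quartile group. *Ly6g*, 1 of the late genes, was itself at 651 CPM in WT and 462 CPM in *Tet2* KO (-0.49). *Elane* was at 962, 51.4, 25.6 and 146 CPM over the 4 groups of WT cells and at 1637, 1194, 917 and 635 CPM over those of *Tet2* KO, and its part in the values below was not tested.

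*Retnlg* and *Mmp8* were highest in the last quartile group of both genotypes. *Retnlg* was at 39.7, 180, 1042 and 10609 CPM over the quartile groups of WT cells and at 56.8, 223, 288 and 5088 CPM over those of *Tet2* KO. The genotypes overlapped within counting error in the first and second quartile groups and differed in the third (log2 ratio -1.86, -2.17 to -1.55) and the fourth (-1.06, -1.14 to -0.98). *Mmp8* was at 0, 3.67, 147 and 635 CPM in WT and at 0, 52.2, 77.8 and 442 CPM in *Tet2* KO. With the 4 quartile groups weighted equally, the log2 ratio was -1.07 for *Retnlg* in place of -1.63, and -0.46 for *Mmp8* in place of -0.91.

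*Olfm4* and *Fcnb* were highest in the first quartile group of WT cells, and *Fcnb* also in that of *Tet2* KO. *Olfm4* was at 463, 187, 54.5 and 125 CPM in WT and at 7.75, 57.0, 80.2 and 115 CPM in *Tet2* KO. The difference between genotypes thus lay in the first 2 quartile groups, and in the first quartile group thinned cells with a UMI were 14 of 37 in WT and 1 of 37 in *Tet2* KO. *Fcnb* was at 1779, 852, 731 and 351 CPM in WT and at 1758, 1439, 1269 and 393 CPM in *Tet2* KO. The genotypes did not differ beyond counting error in its first and last quartile groups, and it was higher in *Tet2* KO in the second (0.76) and the third (0.80).

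*Camp* was lower in *Tet2* KO in each quartile group, at 74425, 76682, 69030 and 47750 CPM in WT and 49060, 56125, 45290 and 38465 CPM in *Tet2* KO. *Ngp*, *Lcn2* and *Ltf* were likewise lower in all 4 quartile groups, with log2 ratios from -0.61 to -0.43, from -0.63 to -0.29 and from -0.61 to -0.22. *Ltf* was lowest in the first quartile group in both genotypes (4410 and 3597 CPM). *Chil3* had no single direction, with ratios from -0.11 to 0.36.

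**Figure D3:**
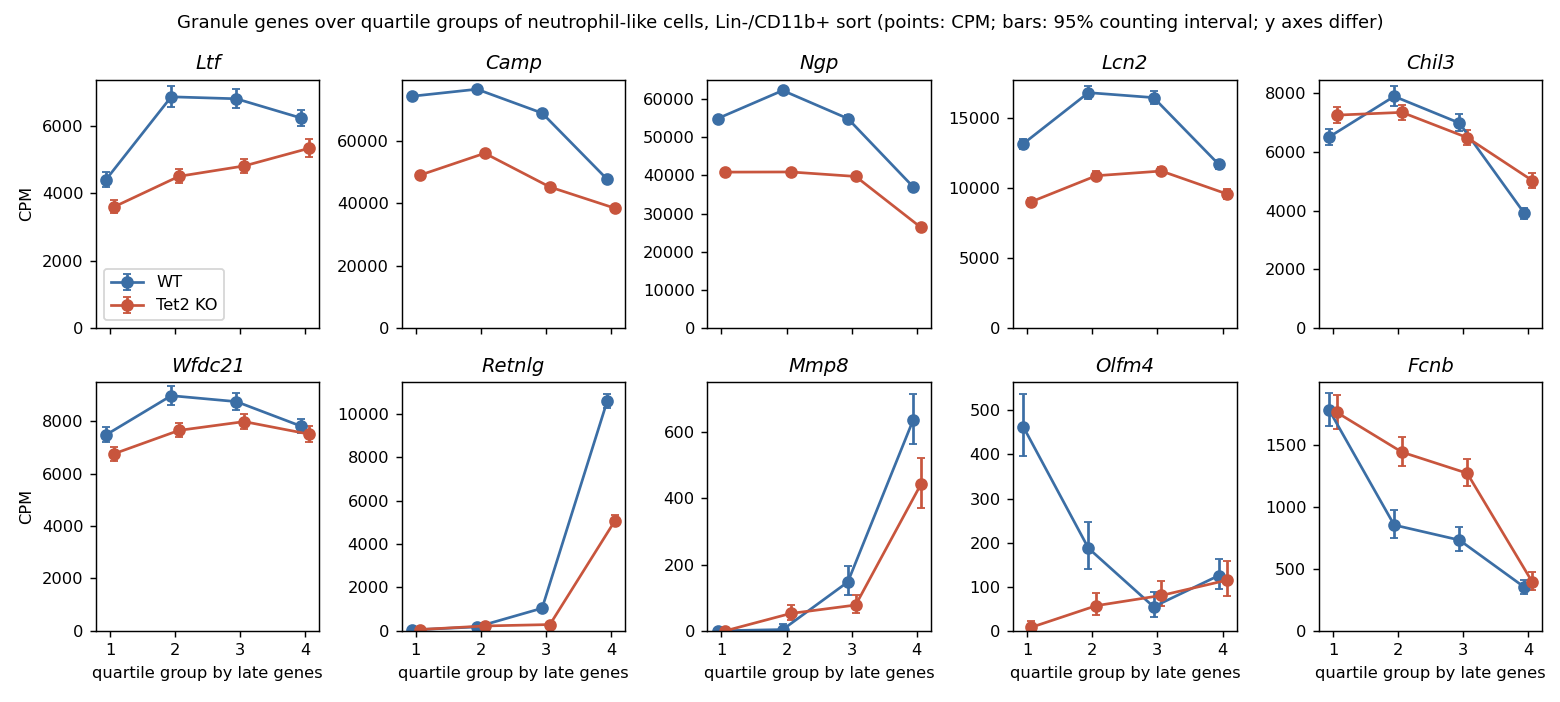
CPM of each granule gene over 4 quartile groups of neutrophil-like cells ordered by late genes, in WT (blue) and *Tet2* KO (red), with 95% counting intervals; y axes differ. *Camp*, *Ngp*, *Lcn2* and *Ltf* ran lower in *Tet2* KO throughout, *Retnlg* parted from quartile group 3, and *Olfm4* differed in quartile groups 1 and 2.

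The genes of few cells also differed in how they met in the same cell, with cells thinned to 5000 UMIs. *Mmp8* was found in 55.8% of WT neutrophil-like cells with *Retnlg* and in 7.04% of those without, and in 48.0% and 7.14% in *Tet2* KO. Both were found in 43 of 148 WT cells (29.1%, against 16.9% if they were independent) and in 24 of 148 *Tet2* KO cells (16.2% against 7.08%). *Fcnb* was found in 59.7% of WT cells with *Retnlg* and in 91.5% of those without. In *Tet2* KO it was found in 84.0% and 82.7%, so that *Retnlg* cells of the *Tet2* KO library more often had *Fcnb* as well. *Olfm4* and *Fcnb* met in 15.5% of WT cells, against 13.7% if independent.

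Progenitors that lead to neutrophils carried *Wfdc21* and little of the other genes. In neutro-biased GMP-like cells of the GMP sort (312 WT and 751 *Tet2* KO cells), *Wfdc21* was at 309 and 304 CPM (log2 ratio -0.02, -0.10 to 0.06), and 76.6% and 68.0% of cells had a UMI (thinned 54.5% and 52.2%). *Fcnb* was at 31.9 and 55.6 CPM (0.80, 0.57 to 1.04), and *Lcn2* at 29.9 and 32.3 CPM (0.11, -0.15 to 0.38). *Chil3* was at 1.99 CPM in WT and 14.8 CPM in *Tet2* KO (2.89, 2.05 to 3.87). *Camp* (1.5 and 1.14 CPM), *Ngp* (1.16 and 1.66), *Retnlg* (0.17 and 0.09) and *Mmp8* (0.17 and 0.26) were at most 1.66 CPM in both libraries. *Ltf* (0 and 0.09) and *Olfm4* (0 and 0.52) had no UMI in WT. Of the 6 genes with at least 20 UMIs, 1 was at least 2-fold higher and 0 at least 2-fold lower in *Tet2* KO, where 1.6% and 1.56% of all genes were.

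In the Lin-/CD11b+ sort of the same mice, the same progenitors (153 WT and 167 *Tet2* KO cells) showed 6 of 8 genes at least 2-fold higher and 1 lower, with 2.24% and 1.5% of all genes. Most of these ratios rested on few cells. In *Tet2* KO, 3 cells held 92.1% of the *Ltf* UMIs, 92.0% of *Camp* and 86.4% of *Ngp*, and in WT 3 cells held 93.1% of *Retnlg*. Without the 3 cells that held most of each gene, *Chil3* (3.56) and *Fcnb* (1.28) were the genes still higher by 2-fold, and *Retnlg* was lower, with 13 UMIs in WT and 1 in *Tet2* KO. *Chil3* was at 5.43 CPM in WT and 51.6 CPM in *Tet2* KO and *Fcnb* at 50.1 and 122 CPM. *Wfdc21* was at 491 and 503 CPM.

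Free RNA in a droplet can give a UMI in a cell that does not express the gene, so the shares of cells with *Camp* and *Ngp* over all other cell types are given first. In the Lin-/CD11b+ sort, which held neutrophils, *Camp* had a UMI in 12.7% to 21.2% of cells in all 7 other cell types in WT, and in 8.23% to 16.2% in *Tet2* KO (cells thinned to 5000 UMIs). In the GMP sort, which held 1 neutrophil-like cell, these were 0% to 1.90% and 0% to 0.93%. *Ngp* was found in 10.5% to 16.7% and 4.90% to 13% of cells in the Lin-/CD11b+ sort, *Ltf* in 1.31% to 4.55% and 0.98% to 5.39%, and *Retnlg* in 1.52% to 5.63% and 1.2% to 3.03%. Lymphoid-like cells, which should lack these genes, had *Camp* in 16.3% of WT and 8.23% of *Tet2* KO cells (unthinned 33.2% and 18.6%), at medians of 13720 and 11384 UMIs per cell. In WT, this share of *Camp* lay within the range over the 7 types. In *Tet2* KO it was the lowest of them, and the highest was that of neutro-biased GMP-like cells (16.2%). *Camp*, *Ngp*, *Ltf* and *Retnlg* are called genes at background shares below. Their shares spanned fewer percentage points over the 7 types than those of *Lcn2*, *Chil3*, *Wfdc21* and *Fcnb*. The name does not mean that the other genes are free of background. Lymphoid-like cells also had *Chil3*, *Lcn2*, *Wfdc21*, *Fcnb* and *Mmp8*, at shares given with those of monocyte-like cells below. Free RNA as the source of any of these UMIs was not tested.

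**Figure D4:**
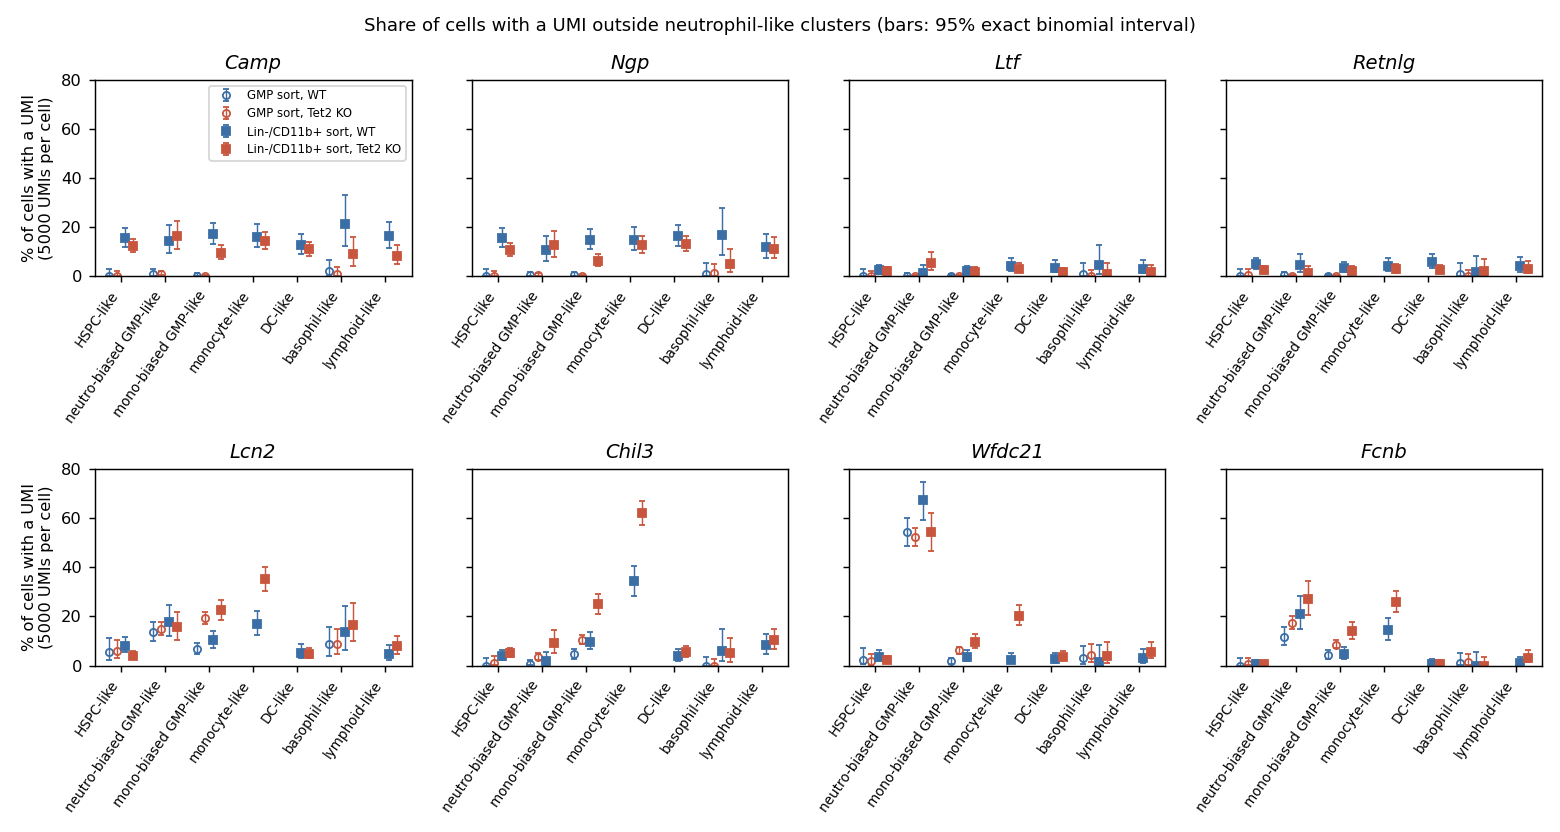
Share of cells with a UMI of 8 granule genes in 7 other cell types, with cells thinned to 5000 UMIs and 95% exact binomial intervals (circles, GMP sort; squares, Lin-/CD11b+ sort; blue, WT; red, *Tet2* KO). *Camp* and *Ngp* were found in every type of the Lin-/CD11b+ sort (4.90% to 21.2%) and were near 0% in the GMP sort. *Lcn2*, *Chil3*, *Wfdc21* and *Fcnb* differed more between types.

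*Lcn2*, *Chil3*, *Wfdc21* and *Fcnb* were higher in *Tet2* KO than in WT in both cell types of the monocytic lineage. The GMP sort held 490 WT and 1134 *Tet2* KO mono-biased GMP-like cells, and thinned shares of *Camp* were at most 1.90% over its cell types. In these cells *Lcn2* was at 16.0 CPM in WT and 47.7 CPM in *Tet2* KO (log2 ratio 1.58, 1.32 to 1.84). *Chil3* was at 19.1 and 65.2 CPM (1.78, 1.54 to 2.01), *Wfdc21* at 3.63 and 16.4 CPM (2.18, 1.65 to 2.74) and *Fcnb* at 8.04 and 21.7 CPM (1.43, 1.07 to 1.81). *Mmp8* was at 3.08 and 5.14 CPM (0.74, 0.12 to 1.40). The other 5 genes had under 20 UMIs.

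More cells had a UMI of these genes. In the same cells, *Lcn2* was found in 21.6% of WT and 42.2% of *Tet2* KO cells (thinned 6.73% and 19.2%) and *Chil3* in 7.96% and 20.5% (thinned 4.49% and 10.4%). *Wfdc21* was found in 5.92% and 13.9% (thinned 1.63% and 6.17%) and *Fcnb* in 9.18% and 22.0% (thinned 4.29% and 8.55%). HSPC-like cells of the same libraries had *Lcn2* in 5.69% and 6.04% of thinned cells, so the WT mono-biased GMP-like share of *Lcn2* was close to theirs. The WT share of *Wfdc21* (1.63%) was the lowest of the 4 cell types of that library. Of the 5 genes with at least 20 UMIs, 4 were at least 2-fold higher and 0 at least 2-fold lower in *Tet2* KO, against 1.44% and 1.76% of all genes, with a median log2 ratio of 1.58 against -0.02.

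The Lin-/CD11b+ sort of the same mice gave like values for the 4 genes in mono-biased GMP-like cells (329 WT and 430 *Tet2* KO). *Lcn2* was at 21.7 and 57.2 CPM (1.40), *Chil3* at 37.2 and 160 CPM (2.11), *Wfdc21* at 9.57 and 28.3 CPM (1.56) and *Fcnb* at 9.57 and 41.3 CPM (2.11). *Mmp8*, which was higher in *Tet2* KO in the GMP sort, was at 5.96 and 4.82 CPM here (-0.31, -1.10 to 0.49). The genes at background shares went the other way or were level, with -0.52 for *Camp* and -0.72 for *Ngp*. *S100a8* moved with the 4 genes, at 19.7 and 251 CPM in the GMP sort (3.67) and 142 and 773 CPM in the Lin-/CD11b+ sort (2.44). *S100a9* was at 2.20 and 10.4 CPM in the GMP sort (2.24) and 76.4 and 114 CPM in the Lin-/CD11b+ sort (0.58). In neutro-biased GMP-like cells of the GMP sort both were also higher in *Tet2* KO. There *S100a8* was at 453 and 1685 CPM (1.90) and *S100a9* at 47.7 and 134 CPM (1.49).

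Monocyte-like cells (248 WT and 399 *Tet2* KO, Lin-/CD11b+ sort) had the highest *Chil3* level of the named cell types outside neutrophils in both genotypes. *Chil3*, which monocytes are known to express, was at 489 CPM in WT and 1265 CPM in *Tet2* KO (1.37, 1.28 to 1.46), with a UMI in 45.6% and 70.4% of cells (thinned 34.3% and 62.2%). *Lcn2* was at 54.2 and 242 CPM (2.16, 1.90 to 2.44), with 24.6% and 50.4% of cells (thinned 16.9% and 35.1%). Both were carried by more cells as well as at a higher level. *Wfdc21* was at 8.68 and 139 CPM (4.01, 3.38 to 4.71), with 6.05% and 32.3% (thinned 2.42% and 20.3%). *Fcnb* was at 42.2 and 95.5 CPM (1.18, 0.86 to 1.51), with 23.8% and 43.9% (thinned 14.5% and 25.8%). *Mmp8* was at 24.4 and 42.8 CPM (0.81, 0.38 to 1.26), with 19.0% and 28.8% (thinned 13.7% and 17.5%). The *Wfdc21* ratio was the highest of these and that of *Mmp8* the lowest. Lymphoid-like cells had *Chil3* in 8.16% of WT and 10.4% of *Tet2* KO thinned cells, *Lcn2* in 4.59% and 7.79%, *Wfdc21* in 3.06% and 5.63%, *Fcnb* in 1.02% and 3.03% and *Mmp8* in 1.02% and 2.16%. The monocyte-like shares were above these for each gene and genotype, except for *Wfdc21* in WT.

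The genes at background shares were also higher in CPM, but in few cells. *Camp* was at 35.1 CPM in WT and 359 CPM in *Tet2* KO monocyte-like cells (3.35), and 3 cells held 78.0% of the *Tet2* KO UMIs, while the thinned share of cells was 16.1% and 14.3%. *Ngp* was at 33.5 and 276 CPM (3.04, 78.5% in 3 cells), *Ltf* at 11.6 and 44.6 CPM (1.95, 68.9%) and *Retnlg* at 7.44 and 55.3 CPM (2.89, 89.5%). Without the 3 cells that held most of each gene in each library, the ratios were 1.33 for *Camp*, 0.98 for *Ngp*, 0.74 for *Ltf* (-0.01 to 1.55) and -0.01 for *Retnlg*. Without cells in the highest 5% of doublet scores they were 0.18 for *Camp*, 0.08 for *Ngp* and -0.45 for *Ltf*. *Lcn2*, *Chil3*, *Wfdc21*, *Mmp8* and *Fcnb* without their 3 top cells had ratios of 2.06, 1.58, 4.36, 0.94 and 1.24. Of the 9 genes with at least 20 UMIs, 8 were at least 2-fold higher and 0 lower with all cells, against 2.84% and 1.44% of all genes. Without the 3 top cells of each gene 5 were at least 2-fold higher, and the share of all genes was not computed that way.

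The granule genes took 1% or more of the UMIs in 2 of 248 WT and 18 of 399 *Tet2* KO monocyte-like cells, and 5 of the 18 had a doublet score in the highest 5%. The median share per cell was 0.0264% in WT and 0.0764% in *Tet2* KO. *S100a8* (500 and 5169 CPM, 3.37) and *S100a9* (191 and 1485 CPM, 2.96) moved with the granule genes. Of 21 other secondary and tertiary granule genes, 6 were at least 2-fold higher and 1 lower, against 2.84% and 1.44% of all genes. Their median log2 ratio was 0.25 against 0.03 for all genes. This count was not repeated without top cells or high doublet scores. None of 8 genes of the primary granule list passed 2-fold in either direction in monocyte-like cells.

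**Figure D5:**
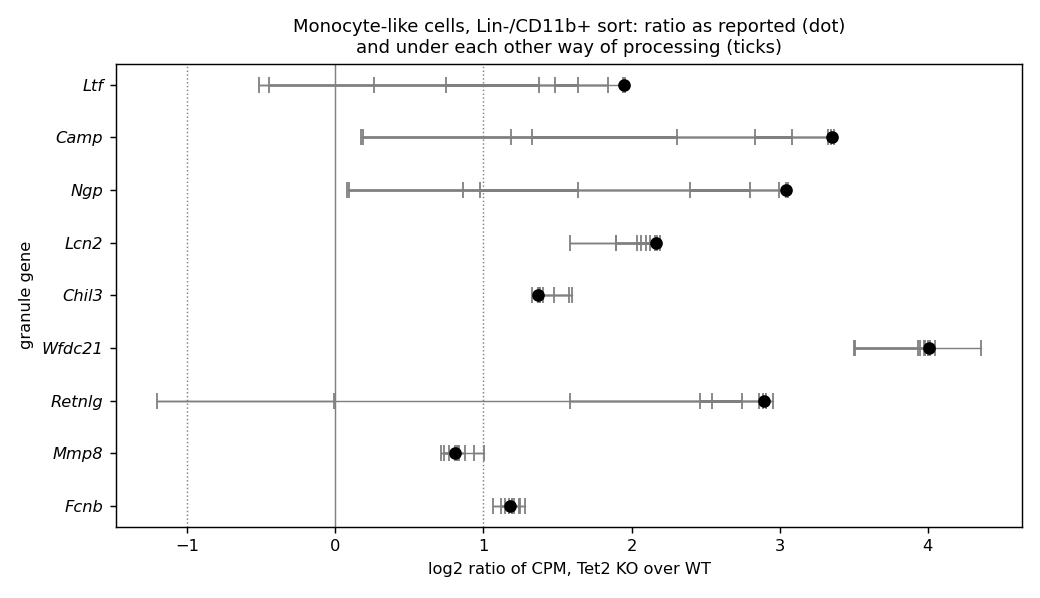
Log2 ratio (*Tet2* KO over WT, CPM) of 9 granule genes in monocyte-like cells as reported (dot) and under each alternative (ticks). *Lcn2* (1.59 to 2.19), *Chil3* (1.33 to 1.60), *Wfdc21* (3.50 to 4.36), *Mmp8* (0.71 to 1.0) and *Fcnb* (1.07 to 1.28) stayed above 0, *Camp* and *Ngp* came down to 0.18 and 0.08, and *Ltf* and *Retnlg* crossed 0.

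The genes whose levels were most like the mean of the 10 over 24 profiles of cell type and library were *Ly6g* (r = 0.97 on log2(CPM + 10)), *Fpr2*, *Pilrb1*, *Cd177*, *Trp53inp2*, *Slfn1*, *Pilrb2*, *Pilra*, *Pla2g7* and *S100a9* (r = 0.95 for the last). The profiles share libraries and depth. With log2(CPM + 1), 5 of these 10 remained among the first 10. Among the granule genes themselves, the correlation with their own mean was highest for *Lcn2* (0.99) and *Ltf* (0.98), and lowest for *Wfdc21* (0.86) and *Chil3* (0.90).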

How the data were processed

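The submitters' processing notes name Cell Ranger 3.1.0, Seurat and build mm10. The authors deposited unnormalized UMI counts (genes by cells) and a table that assigns cells to libraries. Their stated filter asks for 5000 UMIs or more and for a mitochondrial share below 5%, and 44 to 180 cells per library at or above that share were among the deposited counts. The version of the 10x kit differs between the methods and the design text. Depth was 22681380 to 42561110 UMIs per library.

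Members and lists were chosen with earlier results of these data known. All 8969 cells were kept. Counts were scaled to 10000 per cell and clustered on 2000 variable genes without the members, 30 principal components, 30 neighbours and Leiden resolution 0.8 (scanpy 1.11.5, leidenalg 0.10.2, igraph 0.11.9, Python 3.11.15, random seed 1). Clusters were named from fixed markers by a naming rule taken from an earlier analysis of these data. Clusters 2 and 12 stayed unnamed. Doublets were not removed, and the highest 5% of Scrublet scores per library were left out as an alternative.

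For each cell type of a library, UMIs were added up and divided by all UMIs of those cells (CPM). The 95% intervals are exact (Poisson for CPM, Clopper-Pearson for shares, conditional binomial for ratios) and cover counting error alone. Members past 2-fold were counted among genes with 20 UMIs or more over both libraries, with a floor of 3 UMIs per library, where both libraries had 50 cells or more of the type. The maturation index was the mean log2(counts per 10000 + 1) of late genes minus that of early genes. The named genes were the 10 members, *S100a8* and *S100a9*, listed genes past 2-fold in neutrophil-like cells (at most 4 per list by mean CPM), and the 10 genes most like the members. Ratios were tested on simulated counts. numpy 2.4.6, scipy 1.17.1, pandas 2.3.3, scikit-learn 1.9.0, matplotlib 3.10.9 and edgeR 4.0.16 (TMM factors) in R 4.3.3 were used. Summed levels and single members with 20 UMIs or more were recomputed with other scalings, cell filters, cell type calls and, where cells allowed, sorts. This covered neutrophil-like, neutro-biased GMP-like, mono-biased GMP-like and monocyte-like cells. Counts of members past 2-fold were recomputed over all of these alternatives only in neutrophil-like and neutro-biased GMP-like cells. Values per quartile group, pairs of genes, list counts and the other cell types were not recomputed this way.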

Additional observations from a re-analysis of the deposited data

Results flagged for a closer look

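The ratio of *Tet2* KO to WT had opposite signs in neutrophil-like and monocyte-like cells of the Lin-/CD11b+ sort for some of the granule genes. The share of all genes with opposite signs was not computed, so the number of such granule genes is not read as a result. For *Camp*, *Ngp*, *Lcn2* and *Wfdc21* both intervals lay on their side of 0. Each of them was also at least 2-fold higher in monocyte-like cells, with an interval above 0 also without its 3 top cells. The log2 ratio in monocyte-like cells exceeded that in neutrophil-like cells by 3.80 for *Camp*, 3.47 for *Ngp*, 2.63 for *Lcn2* and 4.13 for *Wfdc21*. The monocyte-like ratios of *Camp* and *Ngp* were 1.33 and 0.98 without their 3 top cells. Without the highest 5% of doublet scores they were 0.18 and 0.08. In neutrophil-like cells *Wfdc21* was close to its WT level, at -0.12 with all cells and -0.04 without high doublet scores. *Ltf* (-0.40 and 1.95), *Retnlg* (-1.63 and 2.89), *Mmp8* (-0.91 and 0.81) and *Olfm4* (-1.77 and 1.75, on 1 and 6 UMIs in monocyte-like cells) did not meet these conditions. With 1 library per genotype the difference was not tested. In *Tet2* KO monocyte-like cells, 3 cells held 78.0% of the *Camp* and 78.5% of the *Ngp* UMIs, whereas *Lcn2* and *Wfdc21* were found in 35.1% and 20.3% of thinned cells.

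A cluster that the markers left unnamed, cluster 12, carried the granule genes at a summed 6545 CPM (6439 to 6653) in the *Tet2* KO Lin-/CD11b+ library and 5495 CPM (5257 to 5741) in the WT library. It held 248 *Tet2* KO and 47 WT cells, and none of the comparisons used it. In WT, 3 cells held 77.2% of these UMIs, and in *Tet2* KO 3 cells held 23.4%. *Chil3* was at 1986 CPM in *Tet2* KO and 1317 CPM in WT and *Camp* at 1658 and 2059 CPM. The granule genes took 1% or more of the UMIs in 32 *Tet2* KO and 2 WT cells of the cluster.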

How the results depend on the processing

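The summed log2 ratio of the granule genes in neutrophil-like cells (-0.41) stayed below 0 under every alternative run: -0.62 with TMM factors, -0.58 with a total without the members, *S100a8* and *S100a9*, -0.35 as a mean over cells, -0.34 without the highest 5% of doublet scores, -0.43 without the 3 cells with most member UMIs, -0.43 at Leiden resolution 1.2, -0.45 with the members kept among the variable genes, -0.66 with a gate on single cells and, chosen after seeing the data, -0.31 without cells in bins 2 to 4 and -0.46 with quartile groups weighted equally. For neutro-biased GMP-like cells (0.13) the sum gave 0.24 with the gate and 0.86 in the other sort, and the count of members past 2-fold (1) was 2 with the gate, 7 in the other sort and 2 without the 3 top cells of each gene. For mono-biased GMP-like cells (1.61) the values were 1.77 at resolution 1.2 and 1.14 in the other sort. In monocyte-like cells (1.84) it was 1.64 as a mean over cells, 1.34 without high doublet scores, 1.61 without 3 cells, 1.76 at resolution 1.2, 1.36 with the members in the clustering and 1.62 with the gate. Of the 10 genes most like the members, 5 remained with log2(CPM + 1). The cause of these shifts was not tested.

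Of 419 values of single members under alternatives, 282 stayed within their counting interval, 126 moved beyond it and 11 turned sign after being past 2-fold. In monocyte-like cells, *Ltf* turned to -0.45 without high doublet scores and -0.51 with the members in the clustering, and *Retnlg* to -1.20 with the gate and -0.0087 without its 3 top cells. Among neutro-biased GMP-like cells sorted as Lin-/CD11b+, *Camp* turned to -0.088 without 3 cells, -0.40 in the other sort and -0.065 without its own 3 top cells, *Lcn2* to -0.29 and -0.25 without 3 cells chosen in these 2 ways, and *Retnlg* to 2.23 with the gate. *Ltf* had 1 UMI in *Tet2* KO and 0 in WT in the other sort. Its value there, -0.93, came from the floor of 3 UMIs in both libraries and shows no direction, though it is counted among the 11. In neutrophil-like cells, *Retnlg* ranged from -1.93 to -1.07, *Olfm4* from -2.50 to -1.53 and *Mmp8* from -1.13 to -0.46. Cell type names were kept for 75.3% of cells at resolution 1.2, 90.8% with the members in and 44.9% with the gate. The other sort held too few neutrophil-like and monocyte-like cells to give a value. No paired analysis was possible because each group was 1 library and no test was made.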

Other observations

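In the Lin-/CD11b+ sort, HSPC-like cells numbered 337 in WT and 647 in *Tet2* KO. They held the granule genes at a summed 520 and 146 CPM. In 3 WT and 2 *Tet2* KO cells, these genes took 1% or more of the UMIs. All 3 WT cells and 0 of the 2 *Tet2* KO cells had a doublet score in the highest 5%. Without the 3 top cells of each gene, the log2 ratio was -0.36 for *Camp* in place of -1.70. For *Ngp* it was -0.37 in place of -1.92. *Lcn2* (-1.09) and *Wfdc21* (-1.42) stayed past 2-fold. The HSPC-like cells include the *Dntt*-led cluster, whose part in these values was not tested. In the GMP sort, which had no cell of that cluster, HSPC-like cells were at 22.7 and 20.9 CPM. Lymphoid-like cells were at 1352 CPM in WT and 725 CPM in *Tet2* KO, and 3 cells of each library had 1% or more of their UMIs from these genes. Of these, 2 in WT and all 3 in *Tet2* KO had a doublet score in the highest 5%. *Chil3* was at 6.21 CPM in WT and 37.1 CPM in *Tet2* KO DC-like cells (284 and 491 cells, log2 ratio 2.58, 1.81 to 3.45). Lymphoid-like cells of the same libraries were at 117 and 169 CPM of *Chil3*, above the DC-like levels. *Wfdc21* (1.03, 0.09 to 2.09) and *Mmp8* (1.86, 0.11 to 4.26) were also past 2-fold in DC-like cells. Of 8 genes with at least 20 UMIs, 3 were 2-fold higher and 0 lower, against 3.28% and 1.85% of all genes.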
